A study of Sus scrofa with 2 samples.

Results

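The miRNAs described here are those best known from striated muscle: miR-1, miR-133a, miR-133b, miR-206, miR-208a, miR-208b and miR-499. They were followed in whole testis of Junmu-1 pigs, a white breed of Chinese origin, taken from boars aged 180 days (sexually mature) and 30 days (sexually immature). Each age is represented by 1 small RNA library from the pooled RNA of 3 boars, so there is no spread between animals and no test across them. No treatment or genetic change is named in the labels. The members were taken by the miRNA name that the deposited lists give to each distinct sequence tag, with species prefix and copy number dropped and the arms kept apart. This gave 13 of the 1383 names and arms in the lists, held by 647 distinct tags. All 7 miRNAs asked for were found, although miR-208a and miR-208b had only 2 reads and 1 read, both at 30 days.

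miRNAs are short RNAs that guide silencing proteins to messenger RNAs, which they recognise mainly through the seed, bases 2 to 8 from the 5′ end. In mouse and human, miR-1 and miR-133a are made from neighbouring genes expressed in heart and skeletal muscle, and miR-206 and miR-133b from another such pair expressed in skeletal muscle. In mouse muscle cells miR-1 and miR-206 favour differentiation. miR-208a, miR-208b and miR-499 lie within genes of myosin heavy chains, the motor proteins of the muscle fibre. The testis is not a striated muscle, and these miRNAs are not known as its markers.

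The most read tag of each member (for miR-208a, 1 of its 2 tags of 1 read) is shown first, since the seed (in capitals) puts them into groups. All sequences are tags read from the pig libraries, with T for U, 5′ to 3′. miR-1 and miR-206 carried the same seed, GGAATGT, and differed further along. miR-499-5p and miR-208a shared all seed bases but the last. The tags of miR-133 came with 2 starts, shifted by 1 base, so both are shown.
miR-1: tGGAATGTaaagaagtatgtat
miR-206: tGGAATGTaaggaagtgtgtga
miR-499-5p: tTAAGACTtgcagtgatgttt
miR-208a: aTAAGACGagcaaaaagcttgt
miR-133, most read start: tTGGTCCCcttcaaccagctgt
miR-133, start 1 base earlier: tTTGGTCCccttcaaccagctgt
miR-133a*: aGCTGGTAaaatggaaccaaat

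The 180-day list held 852209 reads matched to miRNAs and the 30-day list 7525725. Levels are given as RPM, reads per 1000000 matched reads. The detection floor of 3 reads is 3.52 RPM for the 180-day library and 0.399 RPM for the 30-day library. Each ratio divides the 180-day by the 30-day level and comes with an exact conditional 95% interval that covers counting error only, since reads amplified by PCR without molecular identifiers are not independent molecules. In whole tissue, fewer cells of a type and less RNA per cell cannot be told apart. The tag numbers in the lists follow falling read counts, and gaps between them bound the reads outside the miRNA matches. Read this way, the whole 180-day library held at least 12035098 reads and the whole 30-day library at least 12711254. Both totals are lower bounds, so the ratio between the whole libraries is not fixed by them. Per read of the whole library, at these lowest totals, every log2 ratio shifts by -3.06, and the TMM and median-of-ratios scalings shift them by -0.91 and -0.89.

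miR-1 was by far the most read of these miRNAs at both ages and made up more of the miRNA pool in the mature testis library. miR-499-5p and miR-206 had nearly the same level per miRNA read at both ages. The miR-133 forms were scarce, and miR-208a and miR-208b were at the edge of detection. Summed over all members, the level was 7215 RPM in the 180-day library and 1973 RPM in the 30-day library, a ratio of 3.66 (3.55 to 3.77). Without miR-1 the sums were 811 RPM at 180 days and 668 RPM at 30 days, a ratio of 1.21 (1.12 to 1.32).

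**Figure D1:**
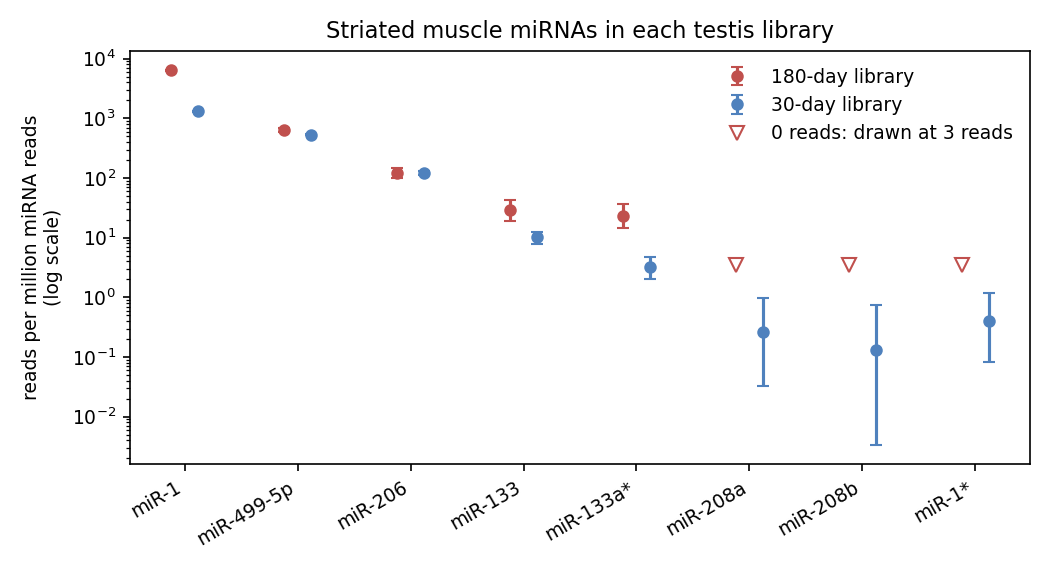
Level of each striated muscle miRNA in RPM, on a log axis, in the 180-day library (red) and the 30-day library (blue), with 1 library per age and exact Poisson 95% intervals. miR-1 stands at 6405 RPM at 180 days and 1306 RPM at 30 days, while the points of miR-206 nearly coincide; open triangles mark 0 reads and are drawn at 3 reads.

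miR-1 had 5458 reads in the 180-day library (6405 RPM, exact Poisson 95% interval 6236 to 6577) and 9825 reads in the 30-day library (1306 RPM, 1280 to 1332). Its ratio was 4.91 (4.75 to 5.07), above the 2-fold line by more than counting error. By name, miR-1 was the 31st most read of the 902 names and arms found at 180 days and the 62nd of 1184 at 30 days. It took 88.8% of all member reads at 180 days (87.9 to 89.5%, exact binomial) and 66.2% at 30 days (65.4 to 66.9%). The star arm, miR-1*, from the other side of the hairpin, had 0 reads at 180 days and 3 reads at 30 days. The exact Poisson 95% interval of 0 reads at 180 days ends at 4.33 RPM.

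miR-206, whose seed is that of miR-1, had 105 reads at 180 days (123 RPM, 101 to 149) and 907 reads at 30 days (121 RPM, 113 to 129). Its ratio was 1.02 (0.827 to 1.25), an interval that includes 1 and excludes a 2-fold difference in either direction. miR-1 reads outnumbered miR-206 reads 52.0 to 1 at 180 days and 10.8 to 1 at 30 days. This ratio of ratios, 4.80 (3.91 to 5.95), does not depend on how the libraries are scaled. The tags of the pair could be told apart by the bases at positions 11 and 17 (A11G and A17G, from miR-1 to miR-206, counted from the 5′ end of the mouse entries). Among tags at the common start, 5276 reads at 180 days and 9466 at 30 days had both miR-1 bases, and 104 reads at 180 days and 896 at 30 days had both miR-206 bases. Tags with 1 base of each kind had 17 reads at 180 days and 55 at 30 days.

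miR-499, encoded in the annotation of Sscrofa11.1 within MYH7B, a myosin heavy chain gene, appeared under the names miR-499-5p and miR-499, which here hold the same arm. miR-499-5p under both names had 541 reads at 180 days (635 RPM, 582 to 691) and 4011 reads at 30 days (533 RPM, 517 to 550). The ratio was 1.19 (1.09 to 1.30), above 1 by more than counting error but far under 2-fold. miR-1 exceeded miR-499-5p 10.1 to 1 at 180 days and 2.45 to 1 at 30 days, a ratio of ratios of 4.12 (3.74 to 4.54). That of miR-206 over miR-499-5p was 0.858 (0.681 to 1.07), an interval that includes 1. miR-1 therefore stood apart from miR-206 and miR-499-5p whatever the scaling, and that pair did not separate beyond counting error.

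miR-133, counted over the names miR-133, miR-133a and miR-133b, had 25 reads at 180 days (29.3 RPM, 18.98 to 43.3) and 76 reads at 30 days (10.1 RPM, 7.96 to 12.6). Its ratio was 2.90 (1.77 to 4.62). The opposite arm, miR-133a*, had 20 reads at 180 days (23.5 RPM, 14.3 to 36.2) and 24 reads at 30 days (3.19 RPM, 2.04 to 4.75), a ratio of 7.36 (3.86 to 13.9). Both are higher in the 180-day library per miRNA read, with wide intervals. The star arm made up 44.4% of the 45 reads of both arms at 180 days (29.6 to 60.0%) while it made up 24 of the 100 reads at 30 days (16.02 to 33.6%). The odds of the star arm were 2.53 times as high at 180 days (1.12 to 5.69), on few reads.

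In the RefSeq annotation of Sscrofa11.1, MIR1 and MIR133A-1 are neighbouring miRNA genes, as are MIR206 and MIR133B, while MIR133A-2 lies within MIB1. miR-1 outnumbered miR-133 218 to 1 at 180 days and 129 to 1 at 30 days. The ratio of ratios was 1.69 (1.06 to 2.77), an interval that ends close to 1. Against the other arm, miR-133a*, miR-1 stood at 273 to 1 at 180 days, against 409 to 1 at 30 days, and this ratio of ratios was 0.667 (0.353 to 1.27), an interval that includes 1. miR-206 over miR-133 was 4.2 at 180 days, against 11.9 at 30 days, and its ratio of ratios was 0.352 (0.211 to 0.604).

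The entries of miR-133a and miR-133b differ at the last base alone (G22A, from the mouse miR-133a to the mouse miR-133b entry). Of the miR-133 reads that reached this base, 20 of 22 carried the miR-133a base G at 180 days and 59 of 60 at 30 days. The miR-133b base A was carried by 1 read at each age. The lists gave the name miR-133b to 2 reads at 180 days and 3 reads at 30 days, some of them too short to tell. Beyond single reads, miR-133b was not detectable at this depth.

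miR-133 had a mixed 5′ start. The start 1 base inside that of the mouse entry, which turns the seed from TTGGTCC into TGGTCCC, held 68.0% of 25 reads at 180 days (46.5 to 85.1%) and 53.3% of 75 reads at 30 days (41.4 to 65.0%). The start of the mouse entry held 6 of 25 reads at 180 days (9.36 to 45.1%), against 42.7% at 30 days (31.3 to 54.6%). The intervals overlap, and the odds ratio of the inner start was 1.86 (0.658 to 5.59). The better counted members had mainly 1 start: the leading one was carried by 97.9% of miR-1 reads at 180 days and 97.5% at 30 days, and by 99.3% of miR-499-5p reads at 180 days and 98.8% at 30 days. For miR-206 it was 104 of 104 reads at 180 days and 896 of 906 at 30 days. For miR-133a* it was 20 of 20 reads at 180 days and 21 of 24 at 30 days, and the 2 reads of miR-208a at 30 days had different starts.

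miR-208a and miR-208b, the first known from the heart and the second from slow muscle fibres and the developing heart, had 0 reads at 180 days, which allows up to 3.52 RPM each. At 30 days miR-208a had 2 reads (0.266 RPM), in 2 different tags, and miR-208b had 1 read (0.133 RPM). MIR208B lies within MYH7 in the annotation. The 30-day levels are below the 180-day floor, so no difference between the ages was detectable at this depth.

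Of the 13 member names and arms, 7 had 20 or more reads over both libraries, the minimum used for calling a ratio. Of these, miR-1, miR-133 (without a letter) and miR-133a* passed 2-fold upwards at 180 days with an interval excluding 1, and 0 passed it downwards. miR-133a, with 4 reads at 180 days and 21 at 30 days, had a ratio of 1.68 (0.420 to 4.99). Over all 469 names and arms with as many reads, 138 (29.4%) passed 2-fold upwards and 53 (11.3%) downwards. The median log2 ratio was 0.75 over the 7 members and 0.22 over all 469. Read against that background, 3 of 7 is too small a count to be a result about the group. With TMM scaling 2 of the 7 were higher, against 15.4% of all names, and 0 lower, against 33.7%. Median-of-ratios scaling gave the same 2 and 0, against 15.8% and 33.7%. Per read of the whole library 0 were higher, against 5.76%, and 5 lower, against 84.4%.

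**Figure D2:**
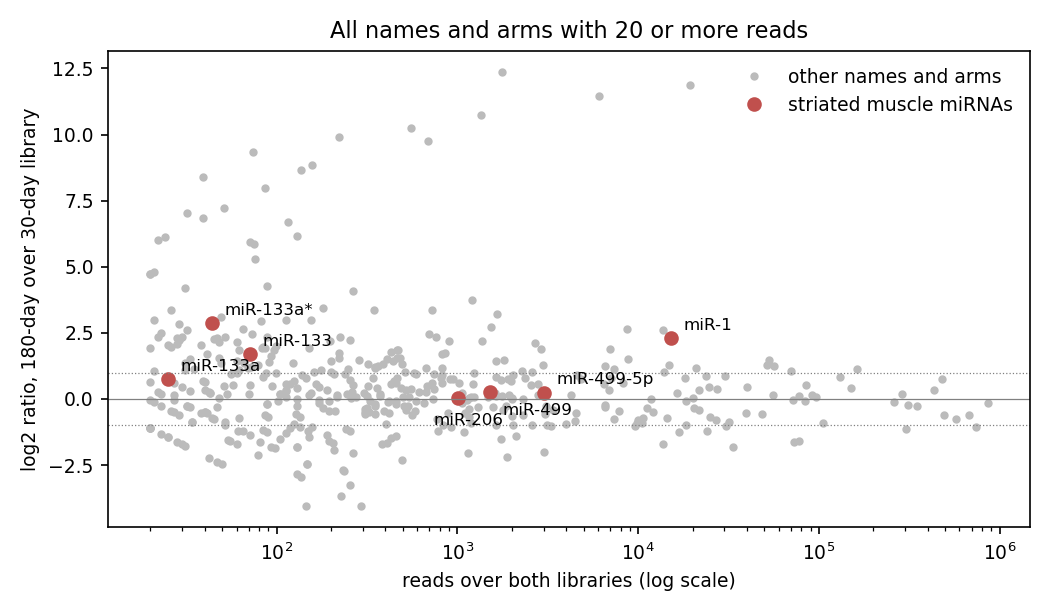
Log2 ratio of the 180-day over the 30-day library against reads over both libraries (log axis) for the 469 names and arms with 20 or more reads, with the 7 striated muscle names in red and dotted lines at 2-fold. miR-1 lies at 2.29 with 15272 reads, while miR-206 and the miR-499 names lie between 0.03 and 0.27.

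The scaling decides whether these miRNAs are read as higher or lower in the mature testis. Set against all reads of the library, miR-1 was at most 454 RPM at 180 days and at most 773 RPM at 30 days, a ratio of 0.587 (0.568 to 0.607) at the lowest totals, below 1. miR-499-5p then had a ratio of 0.142 (0.130 to 0.156) and miR-206 one of 0.122 (0.0989 to 0.150). These totals rest on the tag numbers, among which the leading miR-1 tag was number 229 at 180 days and number 137 at 30 days, and the leading miR-206 tag was number 13178 at 180 days and number 1211 at 30 days. Under TMM scaling miR-1 stayed higher at 180 days, with a ratio of 2.61 (2.52 to 2.70), and miR-206 and miR-499-5p lay below 1 at 0.543 (0.440 to 0.666) and 0.633 (0.578 to 0.693). The statement that holds under all scalings is the one between members, that miR-1 gained on miR-206 and miR-499-5p.

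**Figure D3:**
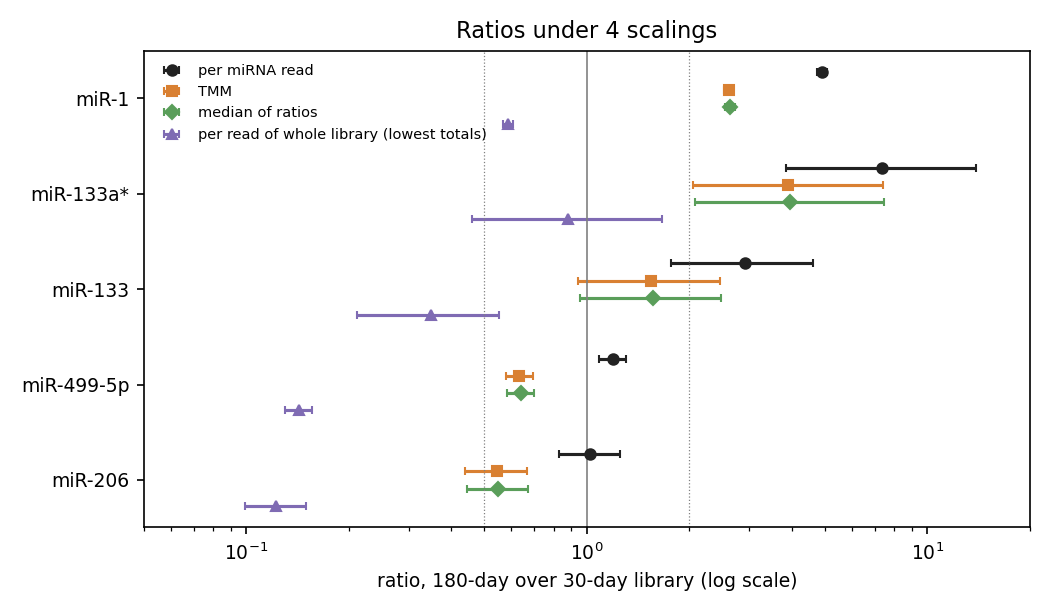
Ratio of the 180-day over the 30-day library, on a log axis, for 5 striated muscle miRNAs under 4 scalings, with exact conditional 95% intervals for counting error and dotted lines at 2-fold. miR-1 is at 4.91 per miRNA read and at 0.587 per read of the whole library at its lowest totals, and it lies to the right of miR-206 and miR-499-5p under each scaling.

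Within each tag family, 67 shares were compared between the ages, and 11 had an odds ratio whose counting interval excluded 1. Left out of both counts were the shares held by tags of 1 read. Their odds were higher at 180 days beyond counting error for miR-1 (1.64), miR-206 (3.30), miR-133 (4.96) and miR-499-5p (3.01). For miR-133a* (0.556, 0.0457 to 4.48) the interval includes 1. Among the 11 was the share of miR-1 reads with no mismatched or unmatched base, 79.0% at 180 days and 80.5% at 30 days. Its odds ratio was 0.913 (0.841 to 0.992). The end of miR-1 gave others. At the leading start, 90.2% of miR-1 reads ended at position 22 at 180 days (89.4 to 91.0%), against 90.2% at 30 days (89.6 to 90.8%). The share by last base differed beyond counting error. The tag with A in place of the final T (T22A, counted from the 5′ end), shown here because its share differed, held 3.48% of these reads at 180 days (3.01 to 4.01%), against 2.01% at 30 days (1.74 to 2.31%).
miR-1 with T22A: tGGAATGTaaagaagtatgtaa
miR-1 with T22C: tGGAATGTaaagaagtatgtac
The odds ratio of T22A was 1.76 (1.42 to 2.17). The tag with C there (T22C) went the other way, at 2.09% at 180 days (1.72 to 2.51%) and 3.04% at 30 days (2.70 to 3.404%), an odds ratio of 0.681 (0.541 to 0.852). Shares within miR-1 do not depend on the scaling, but with 1 library per age a difference of library and one of age cannot be told apart.

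Single changed bases elsewhere in miR-1 were much rarer than at the last position. Over positions 1 to 20 of the 22-nt tag, the median share of reads with 1 changed base was 0.227% at 180 days (range 0.0478 to 0.665%) and 0.209% at 30 days (0.0262 to 0.691%). At position 22 it was 6.65% at 180 days and 5.98% at 30 days. Position 4, within the seed, was among the most changed of these, at 0.665% at 180 days and 0.652% at 30 days. Of the changes that make miR-1 more like miR-206, A11G had 9 reads at 180 days and 26 at 30 days. A17G had 1 read at 180 days and 12 at 30 days. Neither had more than changes such as A14G, with 16 reads at 180 days and 39 at 30 days. T22A, given above, also brings the last base of the leading miR-206 tag.

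**Figure D4:**
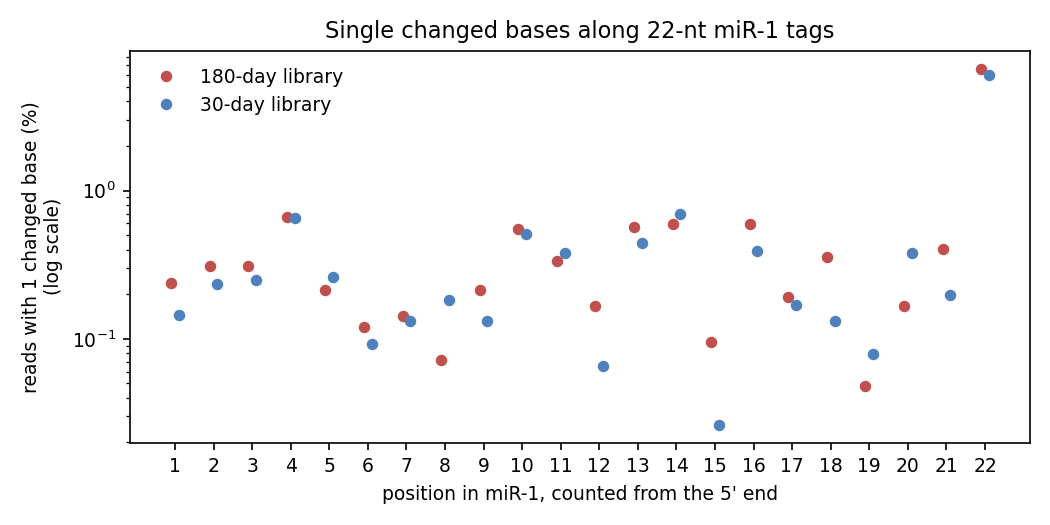
Share of 22-nt miR-1 reads with exactly 1 changed base, by position from the 5′ end, on a log axis, in the 180-day library (red) and the 30-day library (blue), each set against the reads of the unchanged tag. Position 22 stands at 6.65% at 180 days and 5.98% at 30 days, and positions 1 to 20 stay at or below 0.691% in both libraries.

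miR-206 also differed from the listed entry at its last base, in a way shared by both ages. The most read tag ended in A where the mouse entry it was matched to has G (G22A), and held 83 of 104 reads at 180 days (79.8%, 70.8 to 87.0%) and 719 of 896 reads at 30 days (80.2%, 77.5 to 82.8%). The tag ending in G had 0 reads at 180 days and 8 at 30 days. Counting perfect matches to the entries alone therefore removes most miR-206 reads, leaving 3.81% at 180 days and 6.28% at 30 days, while 79.0% of miR-1 reads were left at 180 days and 80.5% at 30 days. This is why miR-206 is counted here with mismatched tags included.

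miR-499-5p ended mostly at position 21, with a second common end at position 22. At the leading start, 64.0% of reads ended at position 21 at 180 days (59.7 to 68.1%) and 64.3% at 30 days (62.7 to 65.8%), and 29.8% ended at position 22 at 180 days (25.97 to 33.9%) and 30.6% at 30 days (29.2 to 32.1%). These are the forms the lists name miR-499-5p and miR-499, and their proportion was the same at both ages within counting error. Ends past position 22 were counted as 3 further shares, chosen after the other values were seen. For miR-499-5p they held 3.75% of reads at the leading start at 180 days (2.31 to 5.74%), against 1.42% at 30 days (1.08 to 1.84%), an odds ratio of 2.70 (1.52 to 4.61). For miR-206 this was 10 of 104 reads at 180 days and 33 of 896 at 30 days (odds ratio 2.78, 1.18 to 6.001). For miR-1 it was 2.80% at 180 days (2.38 to 3.29%), against 2.15% at 30 days (1.87 to 2.46%), an odds ratio of 1.31 (1.05 to 1.64). All 3 intervals exclude 1, with the larger share at 180 days. The class was chosen from these same data, so their agreement is not independent support for longer tags. It contains the position 23 shares already counted. Those intervals include 1 for miR-1 (1.21, 0.966 to 1.52) and miR-206 (2.33, 0.896 to 5.36), but not for miR-499-5p (2.56, 1.37 to 4.55). With 1 library per age a difference of library and one of age cannot be told apart here either.

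**Figure D5:**
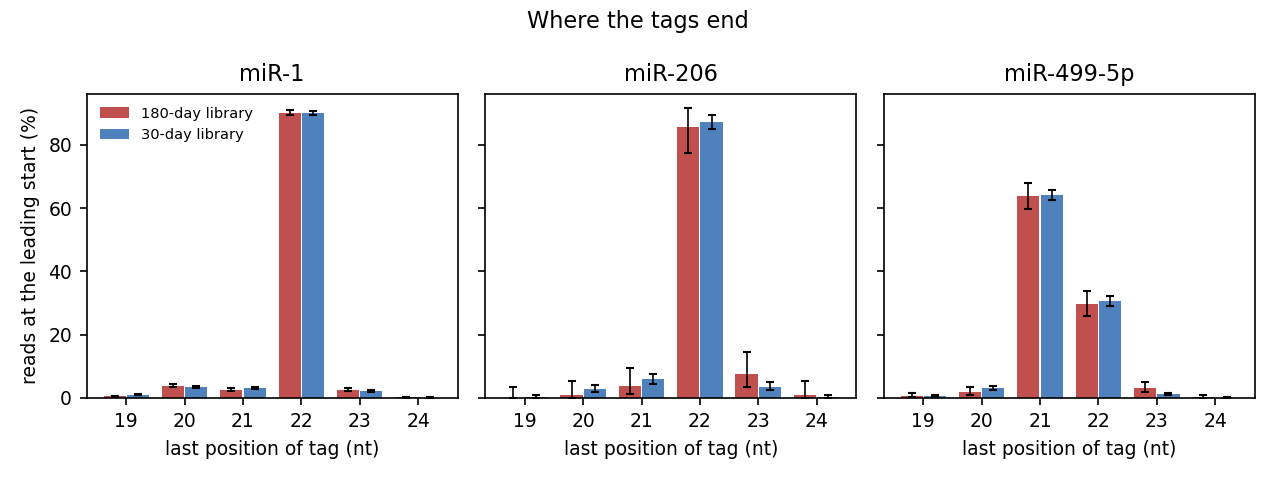
Share of reads at the leading start that end at each position, with exact binomial 95% intervals, for miR-1, miR-206 and miR-499-5p in the 180-day library (red) and the 30-day library (blue). miR-1 and miR-206 end mostly at position 22 and miR-499-5p at position 21, with bars of the libraries at nearly equal height.

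Other miRNAs with known ties to muscle or blood vessels were set beside these. Of the smooth muscle forms, both arms of miR-143 and of miR-145, 3 of 4 passed 2-fold upwards at 180 days and 0 downwards, beside 29.4% and 11.3% of all names, with a median log2 ratio of 1.58 beside 0.22 over all names and a summed level of 17994 RPM at 180 days and 6581 RPM at 30 days. With TMM or median-of-ratios scaling 0 of these 4 passed in either direction. Of all names, 15.4% (TMM) and 15.8% (median of ratios) were then higher, and 33.7% lower with either. Per read of the whole library 4 of 4 were lower, beside 84.4% of all names. miR-1 gained on miR-143 (ratio of ratios 1.78, 1.71 to 1.85) and on miR-145 (1.32, 1.24 to 1.40), while miR-206 lost to miR-143 (0.371, 0.300 to 0.455), as did miR-499-5p (0.432, 0.393 to 0.474). Of the red blood cell forms (miR-451, miR-144, miR-486), 1 of 4 was higher and 0 lower, with a median of -0.23. Their sum was 3933 RPM at 180 days and 1742 RPM at 30 days, mostly miR-451, with 3774 RPM at 180 days and 1535 RPM at 30 days. The ratio was 0.697 (0.533 to 0.898) for miR-486-5p. For miR-144* (0.868, 0.614 to 1.20) and miR-144 (0.833, 0.553 to 1.21) the interval includes 1. With TMM or median-of-ratios scaling 0 of the red blood cell forms were higher and 3 lower, beside 33.7% of all names lower with either. Per read of the whole library all 4 were lower, beside the same 84.4%. miR-1 gained on miR-451 as well (1.995, 1.90 to 2.10). Of the 3 forms of the endothelial miR-126, 0 were past 2-fold, with a median of 0.61. Their sum was 629 RPM at 180 days and 381 RPM at 30 days. With TMM or median-of-ratios scaling 1 was lower, beside the same 33.7%, and per read of the whole library all 3 were. None of these forms was at 0 in either library. The part of these cell types in the miR-1 difference was not tested.

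The germ cell forms of the miR-34b/c and miR-449 group had 8 of 8 counted forms higher, with a median log2 ratio of 10.49, set in part by the floor of 3 reads, and a sum of 35278 RPM at 180 days and 11.4 RPM at 30 days. All 8 were higher under each of the 4 scalings. Of the 4 forms of the gonadal miR-202, 1 was higher and 0 lower, with a median of 0.09. TMM or median-of-ratios scaling gave 0 higher and 2 lower, beside 33.7% of all names lower with either. Per read of the whole library all 4 forms of miR-202 were lower, beside 84.4% of all names. The part of the germ cell and gonadal forms in the miR-1 difference was likewise not tested. Among 20 miRNAs known from the growth or differentiation of muscle cells but found widely in other tissues, 32 forms were counted, of which 6 passed 2-fold upwards and 4 downwards, and their median was -0.50. Among all names 29.4% passed upwards and 11.3% downwards. TMM scaling gave 2 higher and 21 lower, beside 15.4% and 33.7% of all names. Median-of-ratios scaling gave 3 and 21, beside 15.8% and 33.7%. Per read of the whole library the counts were 0 and 29, beside 5.76% and 84.4%. The 4 most read were miR-26a, with 9899 RPM at 180 days and a ratio of 1.07 (1.05 to 1.10), miR-125b-5p with 0.689 (0.663 to 0.716), miR-222 with 0.281 (0.264 to 0.299) and miR-148a with 0.499 (0.474 to 0.524). None of these 4 was 2-fold higher at 180 days.

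Among 149 other names and arms with 1000 or more reads, those with a ratio nearest to that of miR-1 were miR-508 (4.58, 4.08 to 5.13), miR-1274a (4.30, 3.96 to 4.66) and miR-1939 (6.17, 5.96 to 6.38). The likeness rests on 2 libraries and says no more than that these ratios are close.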

How the data were processed

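Per the labels' protocols, RNA from 3 boars per age was pooled, fragments of about 18 to 30 nucleotides were selected on a gel, and adapter-ligated cDNA went through 15 cycles of PCR before Illumina 1G sequencing. The authors deposited, for each library, the raw read count of each distinct tag matched to a known miRNA, with the tag, 1 miRNA name from any species, counts of mismatched and unmatched bases, and a score of the alignment (not used here). Neither aligner, miRBase release nor genome build is given in the sources used here. Counts were used as deposited, without normalization.

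Counts were summed per name and arm, and the 13 member forms were merged into 8 (miR-1, miR-1a and miR-1b together; miR-133, miR-133a and miR-133b; miR-499 and miR-499-5p). The near names miR-1c and miR-1-2-as were left out. A ratio was called at 2-fold or more with an interval excluding 1, for names with 20 or more reads over both libraries; a value of 0 was set to 3 reads for medians. Starts and ends came from ungapped alignment of each tag to 1 listed entry sequence (15 or more matching bases, shifts of up to 4). Intervals are exact (Clopper-Pearson, Poisson or conditional) at 95%. Those of the ratios alone were tried on simulated Poisson counts. These simulated counts hold no PCR copies and no spread between libraries, so they cannot show how the intervals do with either. Over both families, 12 ratios of ratios and 67 shares, plus 3 shares added later, were compared, with no p-value. The shares held by tags of 1 read are not among the 67. Scaling factors came from edgeR 4.0.16 (TMM) and from the median of ratios, and calculations used Python 3.11.15 and scipy 1.17.1. Reading the tag numbers as ranks is an inference from the files. Named were all members, the 3 most read tags of those with 100 or more reads, the 4 most read of the muscle-linked list and the 3 ratios nearest to miR-1; other tags (such as miR-1 with T22A) were chosen after their values were seen. The members and lists were chosen with earlier results of these data known. Gene neighbours came from RefSeq, Sscrofa11.1.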

Additional observations from a re-analysis of the deposited data

How the results depend on the processing

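No paired analysis was possible because each age has 1 library. Of 54 alternative ratios and shares, 25 stayed within the counting interval of the reported one, 25 moved outside it and 4 reversed. The 4 do not include miR-499-5p and miR-206, at 1.19 and 1.02 per miRNA read. Both are counted as moved, although they fell below 1 under the 3 other scalings. Of 8 counts of names, 1 was within 1.5 times the reported count and 7 were not. Per read of the whole library at its lowest totals, the ratios turned to 0.587 for miR-1, 0.347 for miR-133, 0.880 for miR-133a* and 0.437 for the sum, all above 1 per miRNA read, and moved to 0.122 for miR-206 and 0.142 for miR-499-5p. TMM scaling gave 2.61 for miR-1, 0.543 for miR-206, 1.54 for miR-133, 0.633 for miR-499-5p and 1.94 for the sum, and median-of-ratios scaling gave 2.64, 0.550, 1.56, 0.641 and 1.97 for the same. Tags with no mismatched or unmatched base gave 5.15 for miR-1, 0.663 (0.175 to 1.79) for miR-206 and 3.94 for the sum, the miR-206 value resting on the few tags that match the entry. With mammalian names alone miR-133 had 1.59 and the sum 3.81, and miR-133a* gave no value, since its 180-day reads carry a zebrafish name. Without miR-1 the sum had 1.21. Names at least 2-fold higher numbered 27 per read of the whole library, 72 with TMM and 74 with median of ratios. Names at least 2-fold lower numbered 396, 158 and 158 under those 3 scalings. With a minimum of 100 reads, 77 were higher and 48 lower. That minimum leaves fewer names than the 469 with 20 or more reads, so these counts are not on the same base. With perfect tags alone the leading start held 100% for miR-1, miR-206 and miR-499-5p, by construction, and the inner start of miR-133 held 90.9% at 180 days and 80.0% at 30 days. Depth limits the 180-day values most: with 0 reads, up to 3.52 RPM remain possible.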
